A study of Mus musculus with 7 samples.

Results

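Immediate early genes are transcribed within minutes of a stimulus without new protein synthesis, and in neurons they serve as a record of recent activity. This set holds 32 immediate early and activity-regulated genes out of the 48321 genes counted: AP-1 and related bZIP factors, EGR zinc-finger factors, NR4A orphan nuclear receptors, Npas4, Srf and Crem, synaptic and secreted effectors, and regulators of signalling, growth and mRNA decay. Members were chosen by symbol from a fixed list, with earlier results of these data known. All 32 had counts, from 1 to 3063 per library, and 31 passed the filter on low counts. The gene left out was Ier2, a nuclear protein of the immediate early response.

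RNA came from the hand-dissected ventrolateral part of the ventromedial hypothalamus (VMHvl), an estrogen-sensitive nucleus, with 1 female mouse per library. All mice were ovariectomized, which removes the main source of circulating estrogen, and all were of mixed background with 129/Sv ancestry, descended from a floxed Esr1 line. The labels name no Cre driver, and age is not given in the sources used here. The vehicle group held 3 mice and the EB group 4 mice, which received 1 µg of estradiol benzoate (EB, an ester of estradiol) under the skin. Tissue was taken 4 hours after injection in both groups, which is later than the usual peak of immediate early transcripts after a single brief stimulus. The comparison of EB with vehicle asks whether these genes differ at that single time.

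The stimulus reaches such genes mainly through calcium, cyclic AMP and the ERK kinases. These act on CREB, bound to cyclic AMP response elements (CRE), and on serum response factor, bound to CArG boxes. Fos proteins pair with Jun proteins to form AP-1, which together with EGR and NR4A factors sets the later transcriptional response. Arc and Homer1 proteins act at the synapse.

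Library totals ran from 21037303 to 33302293 counts, and 1 count was worth 0.0308 to 0.0440 CPM (counts scaled to library size with TMM factors). All 16 VMH and VMHvl marker genes had counts and passed the filter. So did 13 of 14 arcuate neuron markers, so passing the filter does not establish VMH identity. Fezf1, a transcription factor of the VMH, stood at 140 ± 9.53 CPM with vehicle (SD, n = 3) and 128 ± 18.2 CPM with EB (SD, n = 4), whereas Nr5a1, the classical VMH factor, stood at only 2.03 ± 1.02 and 2.52 ± 1.11 CPM. Vehicle 1 stood apart in the summed level of 17 mural and fibroblast markers, at 1030 CPM against 308 and 447 CPM in the other vehicle libraries and 316 to 648 CPM with EB, where EB 4 was highest. EB 4 was also highest in the summed level of 9 pituitary markers, at 29.4 CPM against 2.84 to 14.8 CPM elsewhere. Cga (18.4 CPM) and Tshb (9.14 CPM) made up most of that sum. Gh and Prl had counts in vehicle 3 only (34 and 53), so pituitary transcripts were not confined to EB 4. Vehicle 2 was highest in the summed level of the VMH and VMHvl markers, at 2681 CPM against 2197 to 2583 CPM elsewhere. It was also highest for the arcuate neuron markers, at 890 CPM against 715 to 794 CPM elsewhere. The part of this difference in the vehicle levels was not tested. Counts of called genes are also given without vehicle 1 and EB 4 together, a setting that keeps vehicle 2. In tissue, fewer cells of a type and less RNA per cell cannot be told apart.

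Promoter sequence was available from RefSeq (GRCm38.p6) for 24 of the 32 genes, as 31 windows of 250 bases ending just before a transcription start, because Egr2, Homer1 and Maff have several starts, some of them overlapping. The 4 windows shown belong to genes whose EB and vehicle libraries did not overlap, so they were picked by outcome. Sik1 and Egr1, both higher with EB and also without overlap, are not shown. Nr4a1 and Nr4a3, whose groups overlapped, also held the half-site. Whether a match goes with the direction of change was not tested. Capitals mark the CRE half-site TGACG, or its complement, and the full CRE TGACGTCA. Fos lies at chr12:85473640-85473889 (plus strand), Btg2 at chr1:134079156-134079405 (minus strand), Jun at chr4:95052223-95052472 (minus strand) and Ier3 at chr17:35821463-35821712 (plus strand). Gene positions given later come from another annotation, GENCODE, whose starts differ from these for Btg2 and Ier3. The end of the Ier3 window lies inside the GENCODE gene.
Fos: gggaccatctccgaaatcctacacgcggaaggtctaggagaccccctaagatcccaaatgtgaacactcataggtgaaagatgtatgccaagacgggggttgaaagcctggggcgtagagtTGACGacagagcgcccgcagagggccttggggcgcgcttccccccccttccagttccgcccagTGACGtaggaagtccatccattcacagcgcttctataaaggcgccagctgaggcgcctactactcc
Btg2: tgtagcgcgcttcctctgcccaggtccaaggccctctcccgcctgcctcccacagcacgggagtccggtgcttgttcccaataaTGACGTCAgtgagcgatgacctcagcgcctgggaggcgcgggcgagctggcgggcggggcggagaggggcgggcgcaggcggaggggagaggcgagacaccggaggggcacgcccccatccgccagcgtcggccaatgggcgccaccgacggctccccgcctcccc
Jun: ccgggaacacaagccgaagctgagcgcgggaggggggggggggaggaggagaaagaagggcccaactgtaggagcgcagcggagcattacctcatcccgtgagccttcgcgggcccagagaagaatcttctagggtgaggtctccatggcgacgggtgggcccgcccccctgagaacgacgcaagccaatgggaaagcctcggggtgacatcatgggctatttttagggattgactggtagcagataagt
Ier3: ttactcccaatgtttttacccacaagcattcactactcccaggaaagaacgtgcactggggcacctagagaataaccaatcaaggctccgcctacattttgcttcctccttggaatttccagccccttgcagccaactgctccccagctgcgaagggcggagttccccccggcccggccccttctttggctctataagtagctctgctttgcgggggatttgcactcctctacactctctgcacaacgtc

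Fos held the half-site starting 129 and 66 bases before its start, and Btg2 held the full CRE starting 166 bases before its start. Jun and Ier3 held no match in these windows. On either strand, the half-site occurred in 19 of the 31 windows (61.3%, 16 of 24 genes) against 17.8% of 32851 windows of the same length. The full CRE, which contains the half-site on both strands, occurred in 6.45% against 1.55%, in Btg2 and Maff. CArG boxes were found for 3 of 24 genes, Egr2, Srf and Zfp36 (6 of 31 windows, 19.4%, against 1.47%). Overlapping Egr2 windows hold the same CArG box and the same half-sites, so these sites count more than once in both shares of windows. The EGR motif GCGNGGGCG was found for 9 genes (29.0% against 4.70%). The AP-1 motif TGANTCA, the NR4A motif AAAGGTCA and the palindromic estrogen response element were in none of the 31 windows, against 6.75%, 1.34% and 0.0639% of all windows. TATAAA was found for 5 genes (16.1% against 12.4%). Median GC content was 62.4% in the members' windows and 52.4% in all windows, and its part in these shares was not tested. A match describes letters only, and no binding was measured.

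Levels per length of exon spanned a wide range in the vehicle libraries. Jun was highest, at 13.0 ± 0.906 CPM per kb, followed by Homer1 (7.58 ± 0.676), Egr1 (7.11 ± 1.39) and Ier3 (6.51 ± 0.454). Homer1, Egr1 and Ier3 did not differ beyond their spread. Fos ranked 22 of 32, at 0.652 ± 0.192 CPM per kb, and Arc ranked 15, at 1.17 ± 0.435 CPM per kb. Egr2, Fosb, Egr3 and Atf3 were between 0.264 and 0.196 CPM per kb, and Ier2 was last. Jun and Egr1 were the transcription factors of the set with the highest levels per length, while 8 genes had mean levels under 2 CPM in both groups. Annotated exons of 2 members overlap those of a gene on the opposite strand over more than 50% of their length (Fosl1 with Ccdc85b, 57.2%; Jund with Gm11175, 52.6%). Whether counting used strand is not given in the sources used here, so values of Fosl1 and Jund are uncertain.

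**Figure D1:**
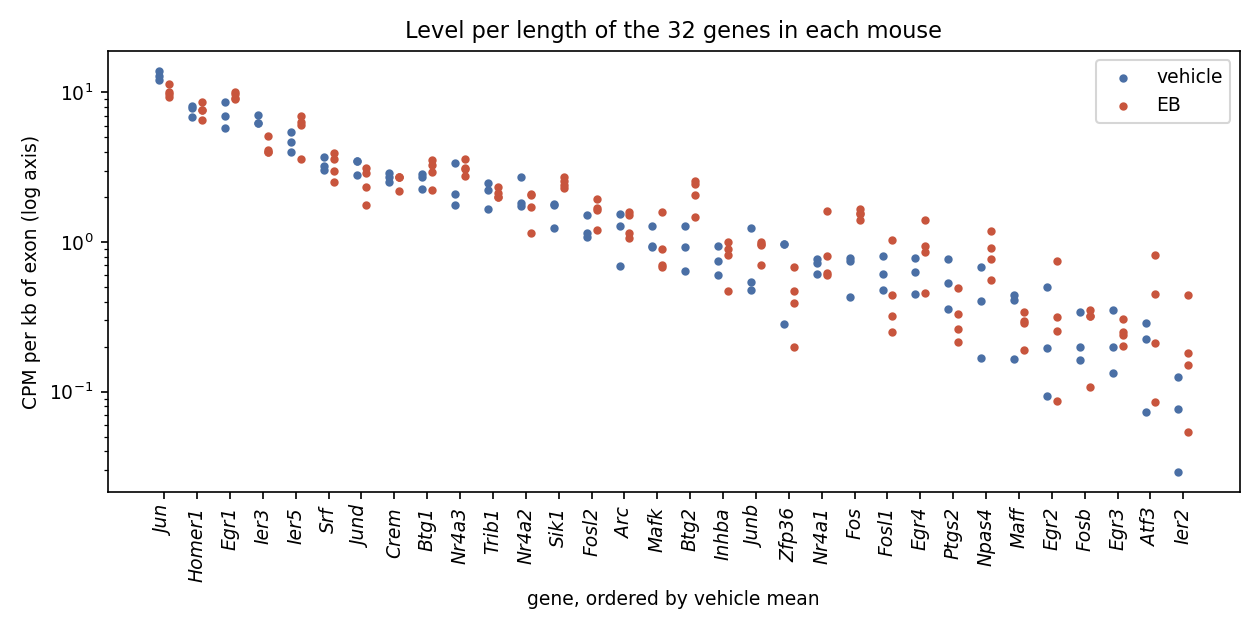
CPM per kb of annotated exon (vertical log axis) of each of the 32 genes, ordered by vehicle mean, with 1 point per mouse (blue vehicle, red EB). Jun, Homer1 and Egr1 lie at the top and Ier2 at the bottom, and points of the low genes spread widely.

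No member passed edgeR's test at 4 hours. The quasi-likelihood test called 0 of 31 members at a Benjamini-Hochberg adjusted p under 0.05, against 0.952% of all 18387 tested genes, and 2 (Fos and Btg2) at an adjusted p under 0.1, against 1.27%. At an unadjusted p under 0.05, 6 members were higher (19.4%) and 2 were lower (6.45%) with EB, against 4.87% and 4.18% of all tested genes. DESeq2, which gave an adjusted p for 24 of the 31, called 4 higher (Fos, Btg2, Sik1 and Egr1, against 1.75% of genes with a value) and 1 lower (Jun, against 0.933%). Limma-voom called 0, against 0.816% of genes. Every EB library was above every vehicle library for 4 members (12.9%, against 5.11% of tested genes), and below for 2 (6.45%, against 3.99%).

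Estimates were positive for 19 of 31 members (61.3%, against 48.4% of tested genes), with a median log2 change of 0.18 against -0.01 over all tested genes. The share of members that was lower at an unadjusted p under 0.05 was near the background. The median was 0.023 without EB 1. The count of members called by edgeR was 1 (Egr1) without vehicle 1, and also 1 without vehicle 1 and EB 4 together. In that last setting, 94 of all tested genes were called higher and 35 lower. The share of all tested genes without vehicle 1 alone is not given here. The counts of members describe the set and give no test of it.

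**Figure D2:**
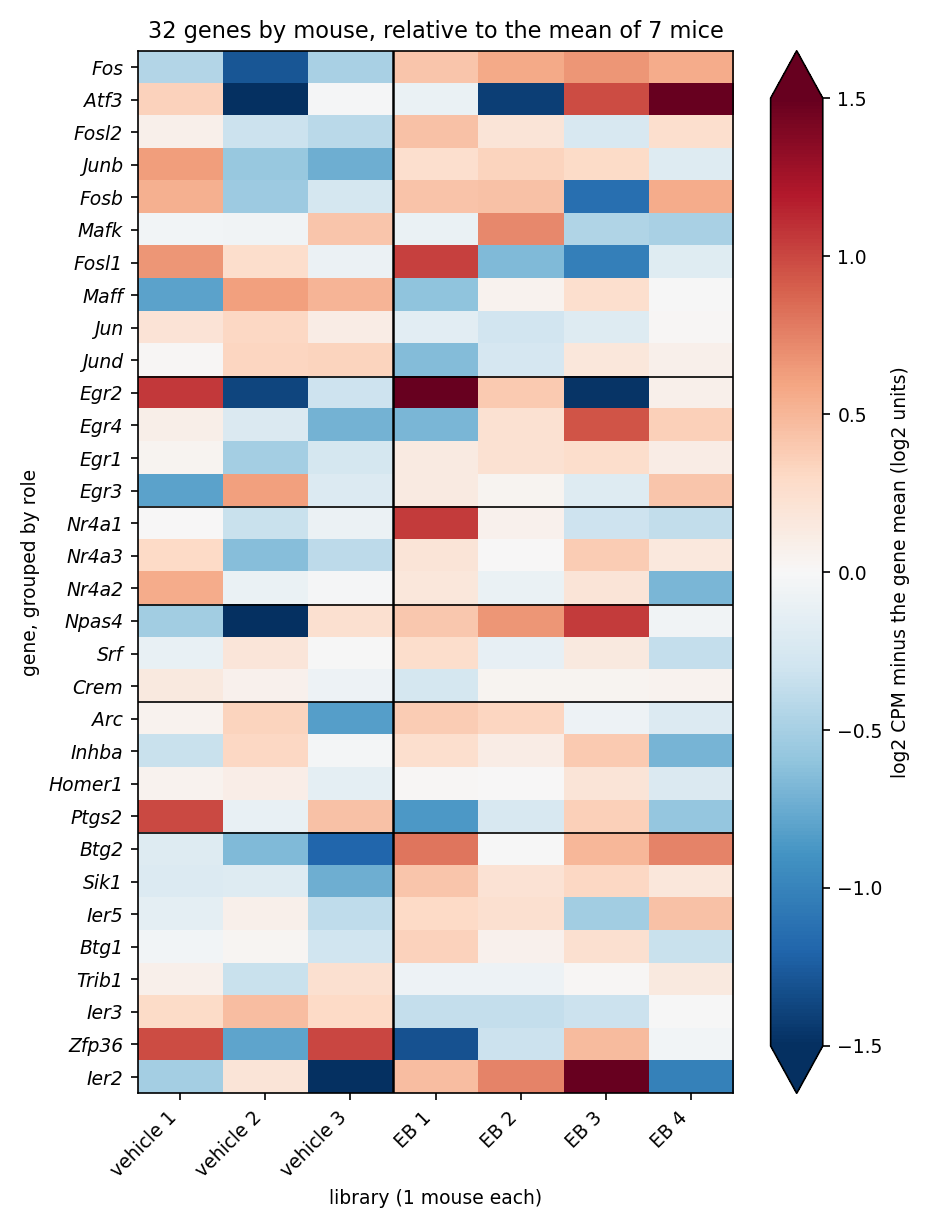
Log2 CPM of the 32 genes in each of 7 libraries, minus the gene's mean over the 7, with red above and blue below that mean and horizontal lines between roles. Fos is below its mean in the 3 vehicle mice and above it in the 4 EB mice, whereas most rows, such as Egr2 and Nr4a1, vary within a group as much as between groups.

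Among the AP-1 and related bZIP genes, Fos and Jun lay in opposite directions. Fos, the founding immediate early gene and the usual marker of activated neurons (chr12:85473890-85477273), was at 1.83, 1.01 and 1.76 CPM in vehicle 1 to 3 and at 3.30, 3.67, 3.92 and 3.62 CPM in EB 1 to 4. The groups did not overlap, and the EB mice lay close together. These values rest on 32 to 47 counts per vehicle library and 88 to 119 per EB library. The log2 difference was 1.27 ± 0.29 (SE; 95% interval 0.64 to 1.89; 2.41-fold), which missed the threshold by edgeR (adjusted p = 0.0682) and passed it by DESeq2 (adjusted p = 0.00771). The estimate was 1.01 to 1.43 with any 1 library left out.

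Jun, the main partner of Fos in AP-1 (chr4:95049034-95052222), was at 41.2, 44.5 and 38.7 CPM in vehicle 1 to 3. It was at 32.2, 29.5, 31.3 and 36.2 CPM in EB 1 to 4, all below the vehicle mice. The log2 difference was -0.36 ± 0.10 (SE; 95% interval -0.58 to -0.14) with an adjusted p of 0.169 by edgeR and 0.0392 by DESeq2. An antisense gene, Junos, overlaps 7.28% of its exon length.

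The other 8 genes of this group overlapped between EB and vehicle. Fosl2, a Fos family member, was at 14.6, 11.1 and 10.5 CPM with vehicle and 18.8, 15.8, 11.7 and 16.4 CPM with EB, where EB 3 was low and within the vehicle range (log2 0.38, adjusted p = 0.546). Fosb, whose truncated product accumulates with repeated stimulation, was at 2.14, 1.01 and 1.23 CPM with vehicle and 1.993, 2.002, 0.674 and 2.18 CPM with EB, so the groups shared most of their range. Junb was at 1.72 ± 0.966 and 2.08 ± 0.323 CPM, with vehicle 1 (2.84 CPM) above every EB library. Jund, a Jun protein with little dependence on stimulation, was at 5.41 ± 0.649 and 4.23 ± 1.03 CPM.

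Atf3, a stress-induced factor, showed the widest interval of the 31, a log2 difference of 0.96 with a 95% interval of -0.63 to 2.55. It stood at 1.77 CPM in EB 4 and 0.969 CPM in EB 3 but at 0.457 and 0.185 CPM in EB 1 and 2, against 0.158 to 0.622 CPM with vehicle. The small Maf proteins, which lack an activation domain, were flat or uncertain: Mafk had a log2 difference of -0.08 and Maff, at under 1.2 CPM in every library, of -0.31. Fosl1, at 1.28 ± 0.334 and 1.04 ± 0.722 CPM, was highest in EB 1 (2.09 CPM) and lowest in EB 3 (0.506 CPM).

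The EGR factors all had positive estimates, and Egr1 was the best measured. Egr1, induced through ERK and serum response factor, was at 38.5, 26.1 and 31 CPM in vehicle 1 to 3 and at 40.9, 43.7, 44.99 and 40.4 CPM in EB 1 to 4. The groups did not overlap, although vehicle 1 came close to EB 4. The log2 difference was 0.42 ± 0.12 (SE; 1.34-fold; adjusted p = 0.200 by edgeR, 0.0484 by DESeq2). Without vehicle 1 it was 0.57 (adjusted p = 0.0383 by edgeR), and without vehicle 1 and EB 4 together 0.60 (adjusted p = 0.0449 by edgeR). Vehicle 1 is the library highest in mural and fibroblast markers, and the part of these cells in the Egr1 level was not tested.

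Egr2 varied within groups more than between them, from 0.317 to 1.71 CPM with vehicle and from 0.295 to 2.55 CPM with EB. Vehicle 1 and EB 1 were the highest of their groups, and its positive estimate (log2 0.52) turned to -0.16 without EB 1. Egr3 was at 1.01 ± 0.496 and 1.10 ± 0.197 CPM, and Egr4 at 1.33 ± 0.352 and 1.97 ± 0.842 CPM, with EB 3 highest (3.03 CPM) and EB 1 (0.980 CPM) inside the vehicle range. Its neighbour in function Nab2, a corepressor that binds EGR proteins and is itself an EGR target, did pass the test and is described with the partner genes.

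NR4A receptors, which act without a known physiological ligand, overlapped between groups. Nr4a1 was at 2.72, 2.15 and 2.55 CPM with vehicle and 5.62, 2.83, 2.19 and 2.10 CPM with EB. EB 1 alone was high, and the log2 difference was 0.40 with it and -0.033 without it. Nr4a3 was at 20.3, 10.5 and 12.6 CPM with vehicle and 18.7, 16.5, 21.4 and 18.3 CPM with EB. Here vehicle 1 was the exception, standing inside the EB range (log2 0.38, and 0.70 without it, adjusted p = 0.0813). Nr4a2, a factor of dopamine neurons, had a log2 difference of -0.24 with a 95% interval of -0.73 to 0.26.

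Npas4, a factor induced by calcium entry in neurons and little by other stimuli, was at 1.67, 0.697 and 2.82 CPM in vehicle 1 to 3 and at 3.17, 3.79, 4.93 and 2.30 CPM in EB 1 to 4. The groups overlapped through vehicle 3, which was above EB 4. Its log2 difference of 1.10 ± 0.40 (SE) had an adjusted p of 0.356. The estimate was 0.67 without vehicle 2 and 1.62 without vehicle 3. Srf, the serum response factor itself, had a log2 difference of -0.03 (95% interval -0.41 to 0.36), and Crem, a CREB relative whose short induced product ICER represses transcription, of -0.08 (-0.36 to 0.21). Counts per gene do not separate ICER from the longer Crem transcripts.

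Synaptic and secreted effectors did not separate the groups. Arc, which controls AMPA receptor traffic at the synapse, was at 3.89, 4.72 and 2.11 CPM with vehicle and 4.87, 4.65, 3.54 and 3.25 CPM with EB (log2 0.18, 95% interval -0.43 to 0.78). Homer1, a postsynaptic scaffold, was the most abundant member by CPM, at 90.7 ± 8.10 and 91.1 ± 10.4 CPM. Its log2 difference of 0.00 had a 95% interval of -0.21 to 0.22, the narrowest together with that of Jun, and the counts do not separate its short activity-induced isoform from the long ones. Inhba, a subunit of activin, had a log2 difference of 0.06 (-0.51 to 0.62).

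Ptgs2, the inducible prostaglandin synthase cyclooxygenase 2, was at 3.54, 1.65 and 2.42 CPM with vehicle and 0.980, 1.51, 2.27 and 1.19 CPM with EB. Vehicle 1 was the highest library, and EB 3 lay within the vehicle range. The log2 difference of -0.77 (adjusted p = 0.580) was -0.44 without vehicle 1 and -0.36 without vehicle 1 and EB 4.

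Of the regulators of signalling, growth and mRNA decay, Btg2 and Sik1 lay higher and Ier3 lower in every EB mouse. Btg2, an antiproliferative cofactor of mRNA deadenylation (chr1:134075170-134079120), was at 3.50, 2.53 and 1.76 CPM in vehicle 1 to 3 and at 6.99, 4.00, 5.69 and 6.75 CPM in EB 1 to 4. Its lowest EB mouse was EB 2, still above vehicle 1. The log2 difference was 1.15 ± 0.28 (SE; 2.23-fold; adjusted p = 0.0974 by edgeR, 0.00780 by DESeq2), and with any 1 library left out it was 0.96 to 1.40.

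Sik1, a salt-inducible kinase that restrains CREB coactivators (chr17:31844250-31855804), was at 9.13, 9.22 and 6.34 CPM with vehicle and 14.0, 12.3, 13.1 and 11.9 CPM with EB. The EB mice were all above the vehicle mice, and vehicle 3 was lowest. The log2 difference was 0.63 ± 0.17 (SE; 1.54-fold; adjusted p = 0.135 by edgeR, 0.0238 by DESeq2).

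Ier3, a stress-induced survival protein (chr17:35821684-35822923), was at 7.04, 7.95 and 7.09 CPM with vehicle and 4.51, 4.50, 4.63 and 5.76 CPM with EB. The EB mice were all below, with EB 4 nearest to the vehicle mice. The log2 difference was -0.61 ± 0.18 (SE; 95% interval -1.01 to -0.21) with an adjusted p of 0.215 by edgeR and 0.106 by DESeq2.

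**Figure D3:**
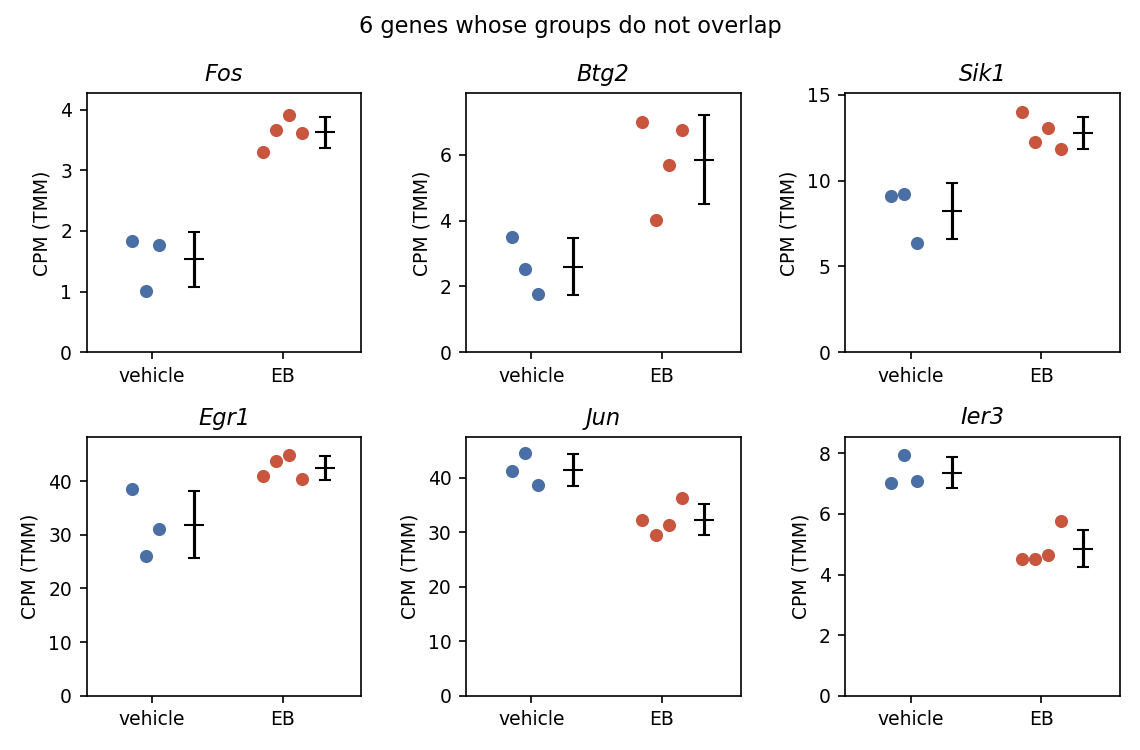
CPM (TMM-normalised, vertical axes from 0) of the 6 members whose groups did not overlap, 1 point per mouse (blue vehicle, n = 3; red EB, n = 4), with mean and SD in black. EB points lie above vehicle points for Fos, Btg2, Sik1 and Egr1 and below them for Jun and Ier3, though none of the 6 passed edgeR's test after adjustment.

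The remaining regulators overlapped between groups. Ier5 was at 15.4 ± 2.39 and 18.9 ± 4.88 CPM, with EB 3 (11.8 CPM) below every vehicle mouse and the other EB mice above all of them. Btg1, a relative of Btg2, had a log2 difference of 0.19 (95% interval -0.16 to 0.55), and Trib1, a pseudokinase that marks proteins for degradation, of -0.00 (-0.34 to 0.33). Zfp36, which binds AU-rich mRNAs and promotes their decay, was at 3.34, 0.982 and 3.39 CPM with vehicle and 0.686, 1.36, 2.36 and 1.65 CPM with EB. Vehicle 2 was the exception for Zfp36, lying among the EB mice (log2 -0.76, adjusted p = 0.699). The estimate was -1.20 without vehicle 2 and -0.48 without vehicle 1. Ier2 had only 3, 6 and 1 counts with vehicle and 7, 9, 16 and 2 counts with EB, too few for a fold.

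**Figure D4:**
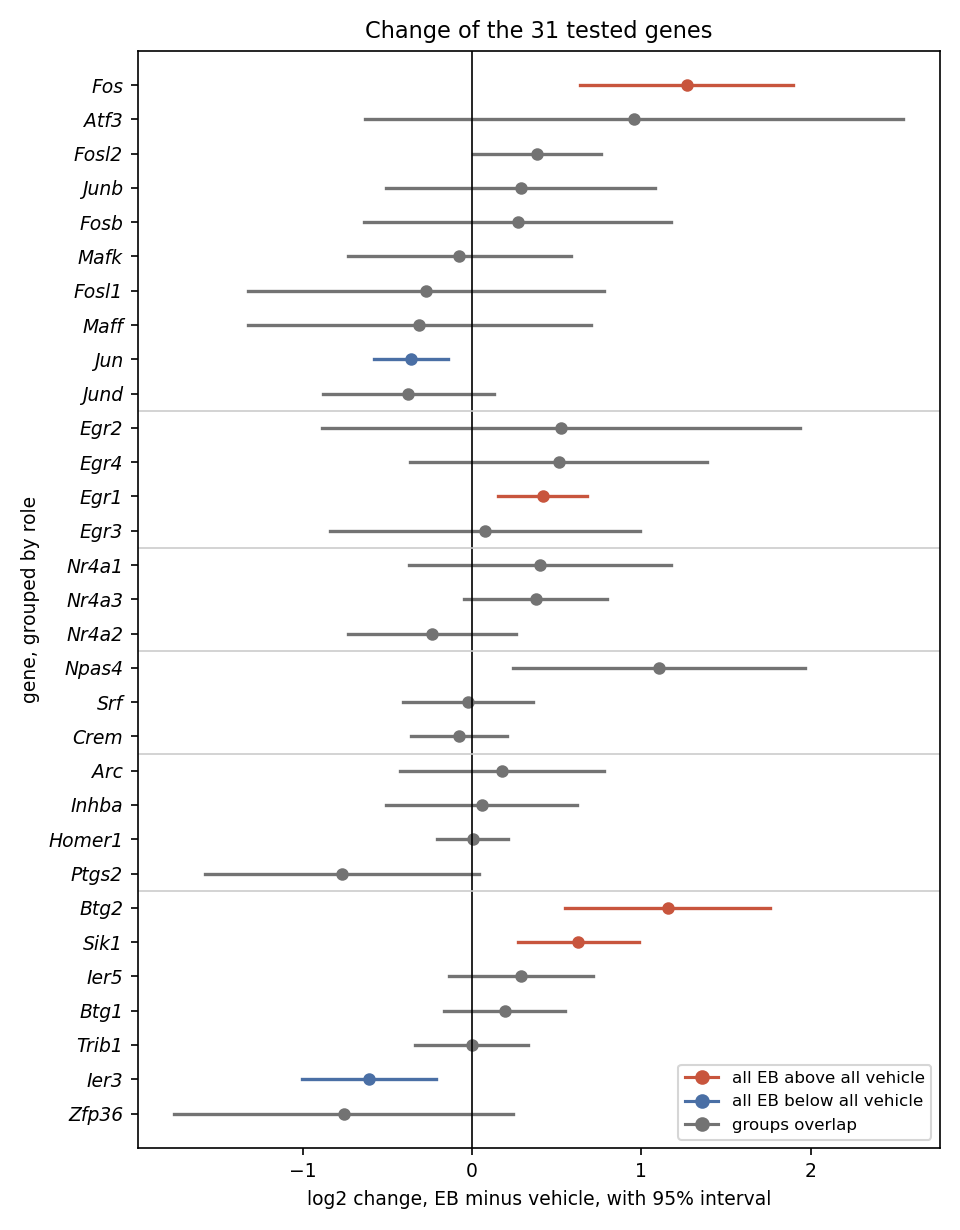
Log2 difference between EB and vehicle for the 31 tested genes, with 95% intervals from the edgeR fit, grouped by role and ordered by size within a role. Intervals of Fos, Btg2, Sik1, Egr1, Jun and Ier3 (coloured) and of Npas4 and Fosl2 lie to 1 side of 0 before adjustment for multiple tests, and those of low genes such as Atf3 and Egr2 are the widest.

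The highest library differed from gene to gene. Among the 4 EB mice, EB 3 was highest for 12 of the 31 tested members, EB 1 for 9, EB 4 for 8 and EB 2 for 2, and EB 4 was lowest for 12. Among the 3 vehicle mice, vehicle 1 was highest for 15 members, among them Fosb, Junb, Egr2, Nr4a3 and Ptgs2. The summed level of the 32 genes was 300 to 349 CPM with vehicle and 327 to 357 CPM with EB. Heat shock genes, a sign of stress in tissue handling, gave 0 of 10 called by edgeR, against 0.952% of all tested genes. At an unadjusted p under 0.05, 1 (Hsph1) was higher and 0 lower, against 4.87% and 4.18%. Their summed level, mostly from Hsph1, Hsp90aa1 and Hspa8, was 1925 to 2291 CPM with vehicle and 2158 to 2357 CPM with EB. Their part in these values was not tested. Endothelial markers summed to 226 to 331 CPM with vehicle and 204 to 266 CPM with EB, and microglial markers to 230 to 239 and 201 to 235 CPM. Of 15 endothelial markers 6 were lower with EB at an unadjusted p under 0.05 (4.18% of all tested genes). EdgeR called 0 of the 15, and DESeq2 called 2 lower, against 0.933% of genes with a value. The part of these cells in the lower values of Jun and Ier3 was not tested.

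Other activity-regulated genes outside the set did pass the test. Of 39 tested, 8 rose and 0 fell by edgeR, against 0.745% and 0.207% of all tested genes. Without vehicle 1 and EB 4, 6 were called, all higher, when 94 of all tested genes were called higher. This list and those below were chosen with earlier results of these data known. Their shares therefore describe the listed genes and are no independent test of enrichment. At an unadjusted p under 0.05, 12 were higher and 3 lower, against 4.87% and 4.18%. DESeq2 called 9 higher and 1 lower, against 1.75% and 0.933% of genes with a value. Rgs4, a GTPase-activating protein for G proteins, was at 45.9, 54.4 and 48.9 CPM with vehicle and 106, 103, 125 and 93.1 CPM with EB. No EB value came near the vehicle range (log2 change 1.10 ± 0.10, adjusted p = 1.02e-04). Its relative Rgs2 had a log2 change of 0.78 ± 0.11. Nptx2, a secreted pentraxin that gathers AMPA receptors, went from 7.88 ± 1.10 to 17.7 ± 2.09 CPM (log2 1.17 ± 0.16), and Gadd45g, a stress and growth arrest gene, from 9.77 ± 0.504 to 21.2 ± 5.50 CPM (1.12 ± 0.18). All 4 kept their calls with each library left out in turn.

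Dusp1, the phosphatase that switches off MAP kinases and is itself an immediate early gene, was at 7.42, 4.75 and 9.03 CPM with vehicle and 16.2, 12.9, 13.6 and 13.3 CPM with EB. The groups did not overlap (log2 1.01 ± 0.20, adjusted p = 0.0280), but the call was lost without vehicle 1 or 2 or any 1 EB mouse, with adjusted p of 0.0574 to 0.123. The other called genes, outside the rule for naming, were Rasd1, Nfil3 and Tiparp, with log2 changes of 1.30, 1.19 and 0.77. Each lost its call without vehicle 3 (adjusted p of 0.132 to 0.179) and without some of the other libraries. Gadd45b, a relative of Gadd45g, had a log2 difference of -0.48 (adjusted p = 0.747), and the clock gene Per1, which CREB also induces, of -0.13 (adjusted p = 0.851). Limma-voom called 6 of the 39, against 0.816% of all tested genes. The median log2 difference of the 39 was -0.02, or 0.13 without vehicle 1 and EB 4.

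Genes that carry the signal to the set gave 0 calls by edgeR and limma-voom and 2, both higher, by DESeq2, out of 36 tested in the ERK, CREB, SRF and MEF2 pathway. DESeq2 called 1.75% of all genes with a value higher. At an unadjusted p under 0.05 by edgeR, 5 of the 36 were higher and 2 lower, against 4.87% and 4.18% of all tested genes. EdgeR also called 0 without vehicle 1 and EB 4. Creb1, the founding CREB, had a log2 difference of 0.14 (adjusted p = 0.708) and Mef2c, an activity-dependent factor of neurons, of -0.13 (adjusted p = 0.743). The median log2 difference of this list was 0.02.

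Among 30 tested paralogs and partners of the members, 2 rose and 0 fell by edgeR, against 0.745% and 0.207% of all tested genes. Without vehicle 1 and EB 4, 1 was called, higher with EB, when 94 of all tested genes were called higher. At an unadjusted p under 0.05, 4 were higher and 0 lower, against 4.87% and 4.18%. DESeq2 called 2 higher and 0 lower, against 1.75% and 0.933% of genes with a value, and limma-voom called 1, against 0.816%. The median log2 difference was 0.05. Nab2 was at 14.9, 13.6 and 12.2 CPM in vehicle 1 to 3 and at 35.7, 31.2, 28.7 and 39.3 CPM in EB 1 to 4, so that every EB mouse was far above every vehicle mouse. Its log2 change was 1.31 ± 0.13 (SE; 2.48-fold; adjusted p = 2.07e-04), and 1.23 to 1.38 with any 1 library left out. Its paralog Nab1 was not called (log2 0.09, 95% interval -0.13 to 0.31). Npas2, a clock factor and distant relative of Npas4, went from 20.7 ± 4.47 to 35.0 ± 4.92 CPM (log2 0.75 ± 0.15, adjusted p = 0.0311), a call lost without vehicle 1 or 3 or EB 1, 3 or 4 (adjusted p of 0.0837 to 0.169). Over the 3 lists outside the set, 10 of 105 genes rose, against 5 without EB 1, 5 without EB 4, 6 without vehicle 3 and 7 without vehicle 1 and EB 4 together.

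**Figure D5:**
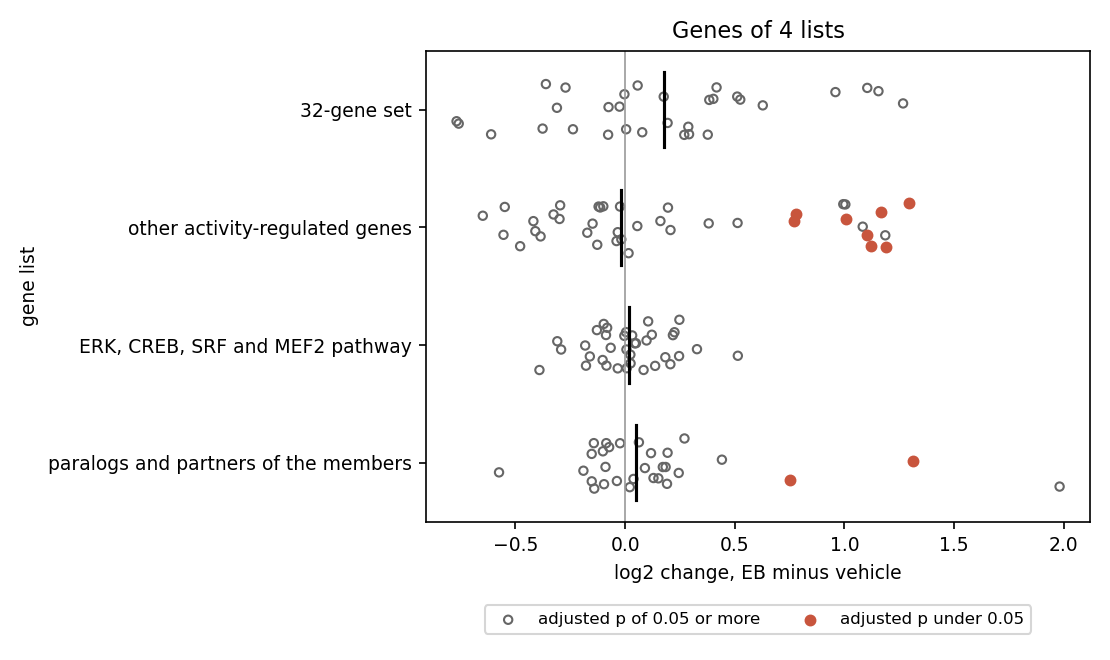
Log2 difference between EB and vehicle for each tested gene of the 32-gene set and of 3 related lists (1 point per gene, vertical scatter without meaning, black bars at the medians). Filled red points passed edgeR's test at an adjusted p under 0.05: 0 in the set, 8 among other activity-regulated genes, 0 in the pathway list and 2 among paralogs and partners.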

How the data were processed

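The authors deposited raw counts per gene symbol for each library, with no normalisation, per the labels and the values. Per the submitters' processing notes the tools were HISAT2, HTSeq and DESeq2 and the build mm10. Versions, annotation and strand setting: not given in the sources used here. Per the labels' protocols each library started from 15 ng of RNA (Trio RNA-Seq kit). FilterByExpr (minimum count 10) kept 18387 of 31222 genes with a count. Counts were TMM-scaled and tested with edgeR 4.0.16 (quasi-likelihood, robust, newer fit) in R 4.3.3, with Benjamini-Hochberg adjustment over all tested genes and a threshold of 0.05; adjusted p-values are from it unless another tool is named. SE is the log2 difference over the square root of F. Alternatives used DESeq2 1.42.0, limma 3.58.1, other scalings and filters, and left-out libraries. Exon lengths and positions came from GENCODE M21 (GRCm38). Tests were also run on simulated counts drawn from the fitted spread of each gene, without an outlying library. That run does not cover differences between libraries such as those of vehicle 1, and no result here rests on it. Members, lists and rules were chosen with earlier results of these data known. Named genes were every member, up to 4 called genes per other list by smallest p, and always Dusp1, Gadd45b, Gadd45g, Nptx2, Creb1, Mef2c, Nab2 and Per1. Replicate pairs differed by more than sampling noise (chi-square per degree of freedom 18.6 to 185). Replicate numbers only name mice.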

Additional observations from a re-analysis of the deposited data

Results flagged for a closer look

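A single EB mouse lay far from the other 3 for 3 of the 32 genes by Dixon's test, which chance alone gives in about 1 of 20 groups. Fosb was low in EB 3, at 0.674 CPM against 1.99 to 2.18 CPM. Ier3 was high in EB 4, at 5.76 CPM against 4.50 to 4.63 CPM. Crem was low in EB 1, at 12.9 CPM against 15.9 to 16.1 CPM.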

How the results depend on the processing

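Over the 15 to 17 alternatives that gave a value for a gene, the sign of the difference held for 21 of the 31 tested members, among them Fos, Jun, Egr1, Ier3, Btg2, Sik1, Npas4 and Fosl2, and turned in at least 1 for the other 10. The count of members higher with EB, 0 by the main test, was 4 by DESeq2, 4 with no filter on low counts (Fos, Egr1, Btg2 and Sik1), 1 with library totals as the only scaling, 2 at an adjusted p under 0.1 and 1 without vehicle 1 and EB 4 together, an alternative chosen after seeing the data. It was 0 to 1 with any 1 library left out. As background, DESeq2 called 1.75% of genes with a value higher. EdgeR called 1.27% of tested genes, in either direction, at an adjusted p under 0.1. Without vehicle 1 and EB 4 together, it called 94 of all tested genes higher. Shares of all genes under the other alternatives are not given here, so those counts of members have no background. The count of lower members, 0 by the main test, was 1 by DESeq2, and that of lower genes in the related lists was also 1 by DESeq2 against 0. Higher genes in those lists numbered 10, and 5 to 9 with 1 library left out. The median over members was 0.023 without EB 1, with a range of 0.023 to 0.21 over the left-out libraries.

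With 1 library left out, estimates that turned sign ranged from -0.16 to 1.44 for Egr2, -0.21 to 0.60 for Egr3, -0.071 to 0.44 for Arc, -0.033 to 0.55 for Nr4a1, -0.44 to 0.084 for Mafk, -0.068 to 0.072 for Homer1, -0.10 to 0.26 for Inhba, -0.13 to 0.075 for Srf and -0.16 to 0.12 for Trib1. Without vehicle 1 and EB 4, Egr3 was at -0.30, Nr4a2 at 0.14, Mafk at 0.0060 and Srf at 0.0024. By limma-voom Homer1 was at -0.0038 and Trib1 at 0.027, and with library totals only Srf was at 0.0023 and Trib1 at 0.041. The cause was not tested. Low counts limit Ier2, Atf3, Egr2, Egr3 and Maff most. No paired analysis was possible because no label ties a vehicle mouse to an EB mouse.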

Other observations

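Outside the rule for naming, and chosen after their values were seen, 3 of the 4 Krüppel-like factors of the activity-regulated list did not overlap between groups and did not pass the test by edgeR. Over all tested genes, 5.11% were higher and 3.99% lower in every EB mouse. Klf2, the other Krüppel-like factor, overlapped between groups (log2 -0.30). Klf4 averaged 2.05 ± 0.834 CPM in vehicle mice against 4.59 ± 0.790 CPM in EB mice (adjusted p = 0.105), Klf10 averaged 10.3 ± 1.64 and 6.58 ± 0.657 CPM (adjusted p = 0.138), and Klf6 averaged 60.3 ± 7.03 and 48.1 ± 3.48 CPM (adjusted p = 0.215). Dusp5, a nuclear ERK phosphatase, averaged 0.871 ± 0.191 and 1.79 ± 0.332 CPM (adjusted p = 0.379).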
